A study of Mus musculus with 12 samples.

Results

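Transcripts of 10 marker genes of monocytes and macrophages were followed across mouse bone marrow cells that had been transduced with mutant SETBP1, mutant NRAS or both. The genes were Adgre1, Adgre4, Adgre5, Cd14, Cd68, F13a1, Ly6c2, Ms4a6c, Mpeg1 and Gpnmb. They were taken by symbol from a table of read counts for 19910 genes, and all 10 were among the 10993 genes with enough reads to be tested. Adgre4 passed the filter on low counts only through the SETBP1 group: in fits without that group it was not tested, so its differences from that group are bound up with its being tested at all, and counts are also given over the other 9 genes. Marrow of female C57BL/6J mice, 6 to 10 weeks old, was transduced with retrovirus. Virus came from the 293T17 packaging line, whose supernatants were collected at 48 and 72 h. Every group received a pair of vectors. The control group, called empty here, received EMPTY + EMPTY, the SETBP1 group received SETBP1 (D868N) + EMPTY, the NRAS group received EMPTY + NRAS (G12D), and the last group, called both, received both mutants. Each group had 3 libraries, 12 in all, made from total RNA with a SMART-Seq kit for very small inputs. The labels call the material murine leukemia cells of bone marrow. The origin of the replicates (mice, transductions or cultures), any sorting and the promoters of the vectors are not given in the sources used here, so p-values measure only the spread between these libraries, which may be technical.

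Monocytes arise in the marrow from progenitors shared with granulocytes, circulate in blood, and can become macrophages in tissue. In the mouse, classical monocytes carry much Ly6C and little CX3CR1, and nonclassical monocytes the reverse, while macrophages gain F4/80, lysosomal proteins and complement components. NRAS is a membrane-bound GTPase that switches on the MAPK cascade, and SETBP1 is a nuclear DNA-binding protein. Mutations of both genes occur in myeloid neoplasms with many monocytes. The study's title concerns the effect of mutant SETBP1 on MAPK activation by NRAS in leukemia.

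The 10 genes encode proteins of 4 kinds. Adgre1 (F4/80), Adgre4 and Adgre5 (CD97) are adhesion G-protein-coupled receptors. Cd14 is the membrane-anchored coreceptor that hands lipopolysaccharide (LPS) to the TLR4 complex. Cd68, Mpeg1 and Gpnmb belong to endosomes and lysosomes: Cd68 is a glycoprotein related to the LAMP proteins, Mpeg1 (perforin-2) forms pores in the membranes of engulfed bacteria, and Gpnmb is a transmembrane glycoprotein of phagocytes and osteoclasts. Ly6c2, a small membrane-anchored protein, and F13a1, the transglutaminase subunit of coagulation factor XIII, are abundant in classical monocytes, and Ms4a6c is a membrane protein of the MS4A family. F13a1 is not a membrane protein, and Cd68 and Mpeg1 lie mostly inside the cell, so "surface marker" fits only some of the 10 genes.

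In the GENCODE vM21 annotation of GRCm38, which is the mm10 build named in the submitters' processing notes, Adgre4 lies at chr17:55749984-55853662 and Adgre1 at chr17:57358691-57483527, 1505029 bases apart and both on the plus strand. Ms4a6c at chr19:11469366-11482192 and Mpeg1 at chr19:12460779-12465283 are 978587 bases apart, also on the plus strand. Adgre5 lies at chr8:83723251-83741326, Cd68 at chr11:69664213-69666153, F13a1 at chr13:36867178-37050244 and Ly6c2 at chr15:75108158-75111970, all on the minus strand. Gpnmb lies at chr6:49036546-49070929 on the plus strand. How reads that fit several genes were counted, and whether strand was used, is not given in the sources used here, so genes with near copies or antisense neighbours are less certain. Of the 50-base stretches of Ly6c2 transcripts, 31.2% also occur in another gene, almost all in Ly6c1, and for Ms4a6c the share is 56.9%, mostly in the antisense gene BE692007 and then in Ms4a6b. For Adgre5 it is 15.6%, all in the antisense neighbour Ddx39. In Gpnmb 1 stretch was shared, and in the other 6 genes none was.

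The coding sequences of Ly6c2 and Ly6c1 are identical at 356 of 393 aligned bases (90.6%), and those of Ms4a6c and Ms4a6b at 548 of 642 (85.4%). The 60-base stretch of each pair's alignment with the most differences is shown, because these bases are what lets reads be assigned to 1 gene of a pair. Sequences are from the GENCODE vM21 transcripts, 5′ to 3′ on the coding strand, starting at base 6 of the Ly6c coding sequences and at base 30 of the Ms4a6 coding sequences. Capitals mark the positions at which the 2 genes differ, 6 in the first pair and 16 in the second.
Ly6c2: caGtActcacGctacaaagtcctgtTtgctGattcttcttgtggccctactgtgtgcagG
Ly6c1: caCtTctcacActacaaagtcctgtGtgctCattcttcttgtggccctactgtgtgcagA
Ms4a6c: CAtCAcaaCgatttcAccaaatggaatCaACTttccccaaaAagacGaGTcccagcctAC
Ms4a6b: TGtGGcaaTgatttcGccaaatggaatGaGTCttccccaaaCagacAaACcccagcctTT
Ly6c1 was assigned few reads, 2.07 ± 0.528 normalised CPM (read counts scaled to the library's total; mean ± SD, n = 3) in the empty group against 3250 ± 129.8 for Ly6c2. Ms4a6b was closer to its relative, at 49.7 ± 9.43 against 102 ± 17.8 CPM. Where the Ly6c2 or Ms4a6c value is given below, reads of a near copy may be part of it.

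Total counts per library ran from 7085894 to 8864919. Nras stood at 86.5 ± 5.75 CPM in the empty group and 88.2 ± 3.78 with SETBP1, against 1520 ± 166 with NRAS and 1559 ± 35.8 with both. Setbp1 had 0 counts in each of the 6 libraries without that vector, 5 to 7 with SETBP1 and 11 to 17 with both, which shows its presence but is too few to measure it. SETBP1 replicate 3 stood apart. Its log2 CPM correlated at 0.946 and 0.953 with the others of its group, where all other pairs within a group reached 0.984 to 0.991, and 11835 genes had a count against 12461 to 12800 in the other libraries. The 10 genes took 0.718% of its counts, against 0.576% and 0.579% in the other SETBP1 libraries, so results that rest on it are given with and without it. Each of the 10 myeloid genes had counts in all 4 groups, though Adgre4 had very few in those with NRAS. All 10 had passed the filter on low counts, so their presence does not check the labelled tissue. Of other lineages, Pax5 of B cells, Cd3e, Cd8a and Ncr1 of T and NK cells and the haemoglobin genes Hba-a1 and Hbb-bs had no count in any library, but other genes of these lists were counted. Nkg7, a granule protein of cytotoxic cells, had 395 ± 23.5 CPM with empty vectors and 48.4 ± 2.70 with both, and Cd79b of the B cell receptor had 19.2 ± 1.47 and 7.57 ± 0.824. The summed CPM of 9 T and NK genes was 375 to 417 with empty vectors, 219.9 to 270.2 with SETBP1, 117 to 119 with NRAS and 51.3 to 59.0 with both. Nkg7 made up most of this sum in every group, so its course is largely that of 1 gene. Lck, the only other gene of the list that was tested, rose with NRAS, from 5.33 ± 0.565 CPM with empty vectors to 10.04 ± 0.793. The part of these genes in the results was not tested.

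Ly6c2 had by far the highest level per length of transcript and Adgre4 the lowest. Per kilobase of exon in protein-coding transcripts, the empty group's mean was 3744 CPM for Ly6c2, 188 for F13a1, 139.6 for Cd68, 80.8 for Gpnmb and 55.1 for Ms4a6c. Adgre5 followed at 53.6, Adgre1 at 33.4, Cd14 at 19.98, Mpeg1 at 15.1 and Adgre4 at 0.537. The order changed between groups. With NRAS, Cd14 came directly after Ly6c2, at 218 CPM per kilobase, and with SETBP1 Gpnmb came directly after it at 252.

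**Figure D1:**
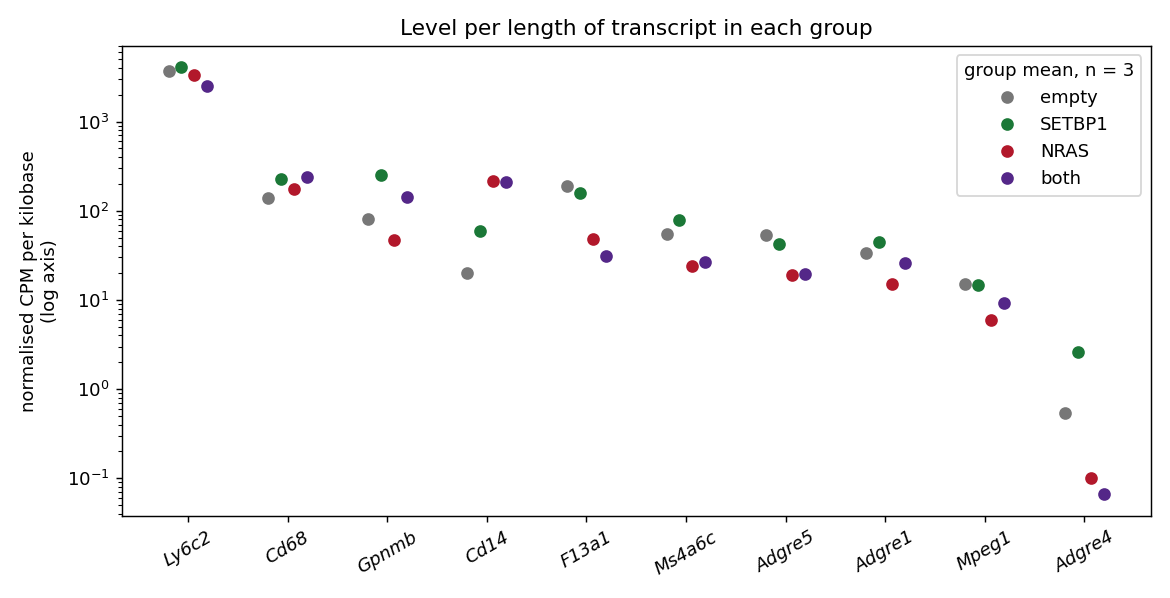
Mean normalised CPM per kilobase of exon on a log axis for the 10 genes, 1 point per group (n = 3 libraries each). Ly6c2 lies between 2532 and 4070, Adgre4 between 0.0663 and 2.63, and Cd14 moves from 19.98 with empty vectors to 218 with NRAS.

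SETBP1 alone was compared with empty vectors to see what the SETBP1 vector alone did to these markers. Gpnmb rose 3.12-fold, Cd14 2.94-fold, Cd68 1.64-fold, Ms4a6c 1.43-fold and the weakly expressed Adgre4 4.79-fold, and Adgre5 fell 1.26-fold. Thus 5 of 10 genes were higher and 1 lower at a Benjamini-Hochberg adjusted p under 0.05 (edgeR quasi-likelihood F test, fitted to all genes), where 14.9% of all genes passed. The median log2 fold change of the 10 genes was 0.465, against -0.012 over all genes tested. Over the 9 genes without Adgre4, 4 were higher and 1 lower, with a median of 0.417. Adgre1, F13a1, Ly6c2 and Mpeg1 did not pass. The call of Ms4a6c ended without SETBP1 replicate 3 (log2 0.41, adjusted p 0.0582) and F13a1 was then lower (log2 -0.42, adjusted p 0.00911), so 4 were higher and 2 lower. In that fit 1705 of all 11112 genes tested passed. Leaving out an empty library gave 3, 4 and 2 genes past the threshold for replicates 1, 2 and 3, and with only these 2 groups in the fit 2 passed. Over all genes tested, 494 of 11116, 1088 of 11138, 390 of 11137 and 110 of 10688 passed in these fits.

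NRAS alone against empty addressed the NRAS vector by itself. Most of the markers fell and Cd14 rose. Cd14 was 10.9-fold higher, whereas F13a1 fell 3.85-fold, Adgre5 2.79-fold, Mpeg1 2.55-fold, Ms4a6c 2.27-fold, Adgre1 2.20-fold and Gpnmb 1.71-fold. Adgre4 passed as lower as well, on few reads. In all, 1 gene was higher, 7 were lower, and Cd68 and Ly6c2 did not pass. Over all genes 32.5% passed in this comparison, and the median log2 fold change was -1.16 for the 10 genes against -0.008 over all genes tested. Without Adgre4, 1 of 9 was higher and 6 were lower, with a median of -1.14. SETBP1 replicate 3 enters this comparison through the shared estimate of the spread, and all 10 passed without it: Cd68 was higher (log2 0.35, adjusted p 0.00232) and Ly6c2 lower (log2 -0.18, adjusted p 0.0289). Calls over all genes rose too in that fit, to 5224 of 11112 from 3576 of 10993.

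Both mutants against NRAS addressed what SETBP1 added where NRAS was present. Gpnmb rose 3.01-fold and Adgre1 1.71-fold, while F13a1 fell 1.57-fold and Ly6c2 1.30-fold. These 4 of 10 genes passed where 1.91% of all genes did, and the median log2 fold change was 0.084 for the 10 genes and 0 over all genes tested. The remaining 6 did not pass, among them Cd68 (log2 0.45, adjusted p 0.297) and Mpeg1 (log2 0.64, adjusted p 0.402). Without Adgre4, which did not pass, 2 of 9 genes were higher and 2 lower, with a median of 0.127. The Gpnmb call held without each library in turn. The Adgre1 call ended without any 1 of the empty, NRAS or both libraries (adjusted p 0.0597 to 0.204), that of F13a1 without any of these except both replicate 2 (0.0635 to 0.186), and that of Ly6c2 without any except both replicate 3 (0.0615 to 0.19). Leaving out SETBP1 replicate 3 left all 4 and added Cd68 (log2 0.45, adjusted p 0.00157). Calls over all genes then rose from 210 of 10993 to 836 of 11112.

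Both mutants against empty gave 3 genes higher, Cd14 (10.6-fold), Gpnmb (1.76-fold) and Cd68 (1.73-fold), and 5 lower, Adgre4, F13a1 (6.05-fold), Adgre5 (2.71-fold), Ms4a6c (2.08-fold) and Ly6c2 (1.48-fold), where 40.6% of all genes passed. Against SETBP1 alone, both mutants gave 1 gene higher, Cd14, and 7 lower, all but Cd68 and Mpeg1, where 42.4% of all genes passed. NRAS against SETBP1 gave Cd14 higher and 8 lower, all but Cd68, where 40.9% passed. All 10 genes passed in the first and the second of these 3 comparisons when SETBP1 replicate 3 was left out, where 5969 and 5166 of all 11112 genes tested did. Leaving Adgre4 out of the 3 comparisons takes 1 gene from the lower ones in each. The comparisons with empty vectors share those 3 libraries, so their directions are not independent of one another.

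**Figure D2:**
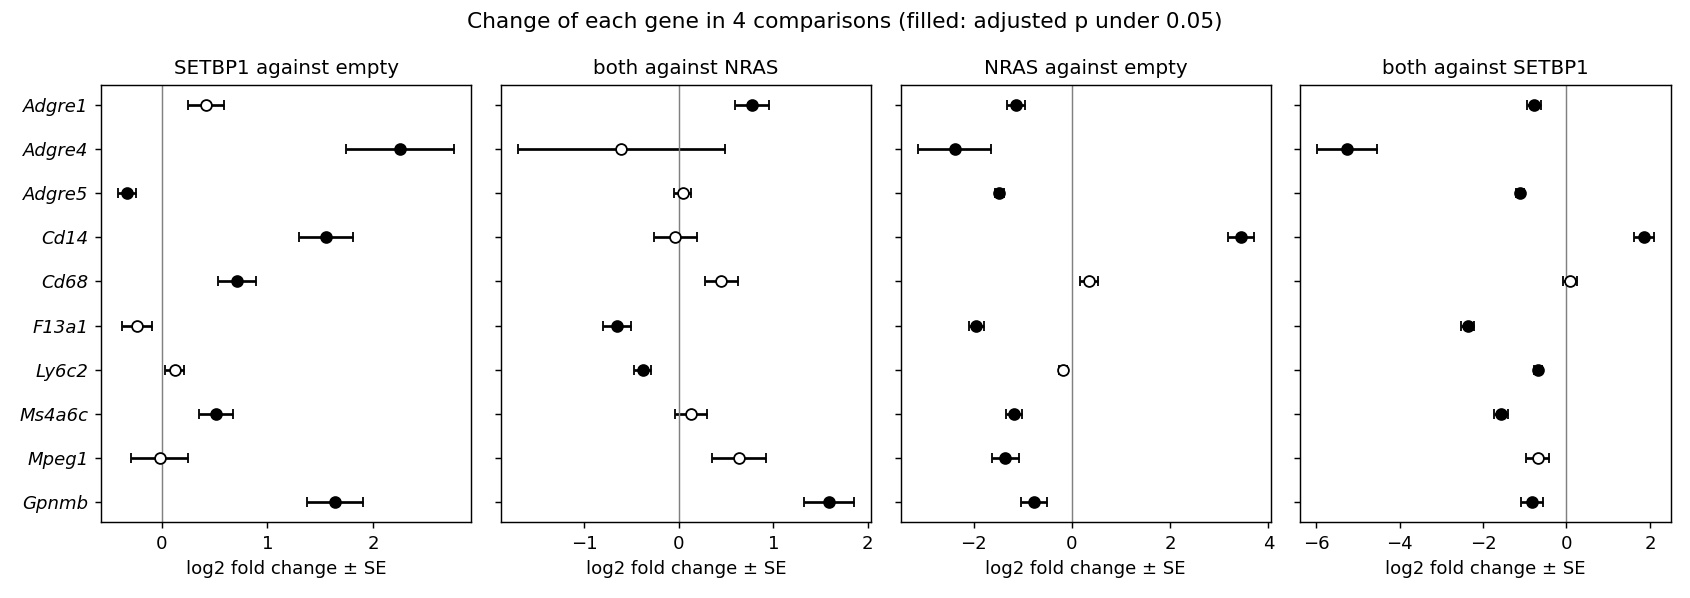
Log2 fold change with its standard error for the 10 genes in 4 comparisons (axes differ between panels), filled where the adjusted p was under 0.05. Gpnmb lies to the right of 0 in both panels that add SETBP1 and to the left in both that add NRAS, and Cd14 lies far to the right with NRAS.

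Whether SETBP1 acted differently with and without NRAS was tested as an interaction, the SETBP1 change with NRAS minus that without it. None of the 10 genes passed with edgeR, where 0.0455% of all genes (5 of 10993) did. Cd14, Ly6c2 and Adgre5 had an unadjusted p under 0.05, as did 12.9% of all genes tested. Adgre4 did too, but it was tested only through its SETBP1 counts. Those counts enter this difference, so its value is not counted here. The largest well measured difference was that of Cd14 (log2 -1.59, SE 0.34, adjusted p 0.172), which rose 2.94-fold with SETBP1 alone and had almost equal levels with both and with NRAS. That of Ly6c2 was next in its p (log2 -0.50, SE 0.12, adjusted p 0.185). DESeq2 called both (adjusted p 0.00174 and 0.0192), where it called 93 of all 10993 genes, and limma-voom called none of the 10. With SETBP1 replicate 3 left out, edgeR also called both (Cd14 log2 -1.16, adjusted p 0.00519; Ly6c2 log2 -0.42, adjusted p 0.0409), and without SETBP1 replicate 1 it called Cd14 (log2 -1.83, adjusted p 0.0277). These fits called 110 of 11112 and 76 of 11119 genes in all. For Gpnmb the difference was small against its error (log2 -0.05, SE 0.37, adjusted p 0.962).

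**Figure D3:**
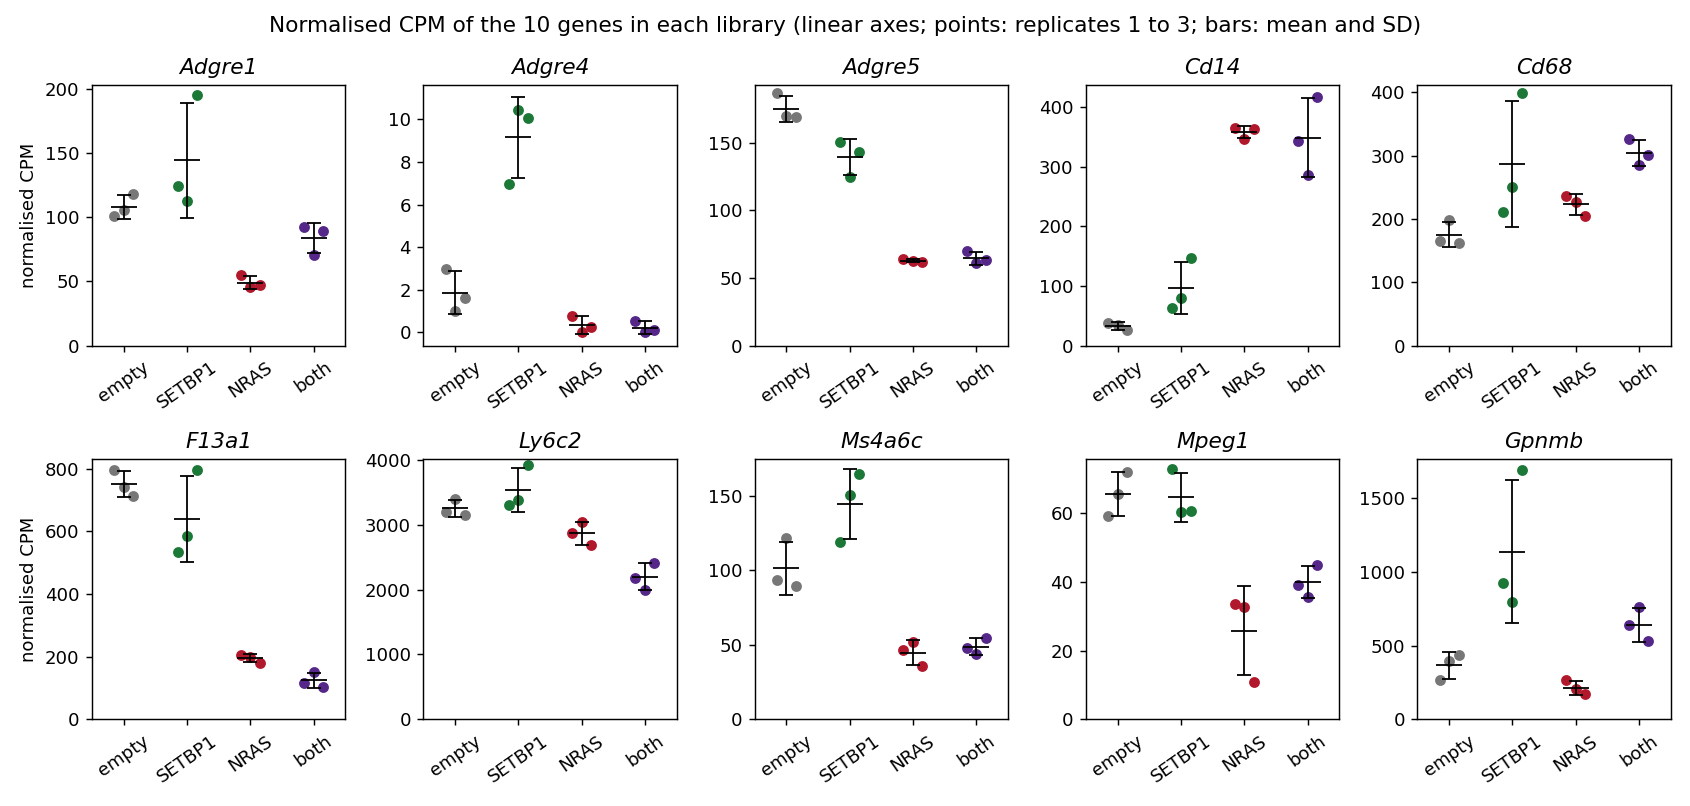
Normalised CPM of the 10 genes in the 12 libraries, by group (linear axes from 0; points are replicates 1 to 3, bars the mean and SD, n = 3). Cd14 separates the libraries with NRAS from those without, and Gpnmb is highest with SETBP1, where replicate 3 reaches 1689.

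Cd14, the LPS coreceptor, had the widest span of the 9 genes with at least 50 counts per library on average. It lies at chr18:36725067-36726798 on the minus strand. It stood at 38.2, 34.3 and 25.9 CPM in the empty replicates 1 to 3, at 63.7, 79.97 and 147 with SETBP1, at 365, 346 and 363 with NRAS and at 343, 287 and 418 with both. The empty libraries were the lowest, the SETBP1 libraries lay between, and the NRAS and both libraries were the highest and overlapped. Against empty, Cd14 changed by log2 1.56, SE 0.26, adjusted p 0.00306 with SETBP1, and by log2 3.44, SE 0.26, adjusted p 4.23e-07 with NRAS. Between both and NRAS the difference was log2 -0.037, SE 0.23, adjusted p 0.984. The SETBP1 change was log2 1.12 (adjusted p 8.32e-05) without SETBP1 replicate 3, the highest of its group. The order was therefore empty, SETBP1, then NRAS and both, which did not differ beyond their spread.

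Transcripts of other proteins of LPS recognition were counted beside Cd14. Over all genes, 14.9% passed with SETBP1, 1.91% with both against NRAS and 32.5% with NRAS. Of 12 partners, all tested, 1 rose, 6 fell and 5 did not pass with NRAS (median log2 -0.43). Tlr2, a receptor for bacterial lipoproteins, went from 87.99 ± 8.24 to 28.4 ± 6.85 CPM (log2 -1.63, SE 0.18, adjusted p 1.41e-05), and Lbp, the protein that carries LPS to Cd14, from 135 ± 6.08 to 62.8 ± 5.56 (log2 -1.11, SE 0.11, adjusted p 6.99e-06). Cd180, a TLR4-like receptor, was the one that rose, from 4.92 ± 0.746 to 11.02 ± 0.576 CPM (log2 1.16, SE 0.21, adjusted p 0.000982). Tlr4 itself did not pass, with 59.6 ± 1.66 CPM in the empty group and 61.2 ± 4.32 with NRAS. With SETBP1 alone Tlr2 (log2 0.65, SE 0.17, adjusted p 0.0245) and Ly86 (log2 0.67, SE 0.15, adjusted p 0.0151), which chaperones Cd180, rose and the other 10 did not pass. Neither passed without empty replicate 1 or 3, and 1 of them without empty replicate 2. With both against NRAS Lbp alone passed (log2 -0.52, SE 0.12, adjusted p 0.0395), a call that held without SETBP1 replicate 1 or both replicate 1 and ended without any other library but SETBP1 replicate 3, whose removal gave 3 calls.

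Gpnmb had the largest change with SETBP1 alone after Adgre4. Its CPM was 266, 392 and 437 in the empty replicates, 924, 796 and 1689 with SETBP1, 264, 203 and 171 with NRAS and 636, 758 and 527 with both. No 2 groups overlapped: NRAS was lowest, then empty, then both, then SETBP1, where replicate 3 was far above the others. Gpnmb rose with SETBP1 alone (log2 1.64, SE 0.26, adjusted p 0.00285) and with both against NRAS (log2 1.59, SE 0.27, adjusted p 0.00642), where it ranked 104th of 10993 genes by the size of its change. The first of these was log2 1.24 without SETBP1 replicate 3 (adjusted p 9.59e-05). The fall with NRAS (log2 -0.78, SE 0.26, adjusted p 0.0363) was close to the threshold and ended without empty replicate 2 or 3, NRAS replicate 2 or 3, or both replicate 1 (adjusted p 0.0514 to 0.135). The rise of both over empty (log2 0.81, SE 0.26, adjusted p 0.0228) ended without empty replicate 1, both replicate 1 or both replicate 2 (adjusted p 0.0532 to 0.108), and the fall of both against SETBP1 ended without both replicate 1 or 3 (0.0586 and 0.0825).

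Relatives and regulators of Gpnmb moved unevenly. Of 11 tested, 3 rose with SETBP1, 3 rose and 3 fell with NRAS, and 1 rose with both against NRAS. Shares over all genes were 14.9%, 32.5% and 1.91%. Sdc4, a heparan sulfate proteoglycan to which Gpnmb binds, rose in each of these 3 comparisons, from 5.14 ± 1.52 CPM with empty vectors to 11.8 ± 2.60 with SETBP1, 42.4 ± 3.31 with NRAS and 68.6 ± 5.32 with both. Acp5, an acid phosphatase of osteoclasts, rose with SETBP1 (log2 1.21, SE 0.22, adjusted p 0.00524) and fell with NRAS (log2 -2.11, SE 0.26, adjusted p 3.47e-05). Mitf, a transcription factor known to drive Gpnmb, had 6.82 ± 0.492, 6.67 ± 3.86, 6.17 ± 2.19 and 9.07 ± 0.395 CPM in the empty, SETBP1, NRAS and both groups and passed in none of the 3 comparisons. The single call with both against NRAS, Sdc4 (adjusted p 0.0464), ended without any library except empty replicate 2 and the SETBP1 libraries, and without SETBP1 replicate 3 there were 3 calls, Sdc4, Grn and Acp5.

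Cd68 changed less. Its CPM was 165, 199 and 163 with empty vectors, 212, 251 and 399.7 with SETBP1, 236, 227 and 205 with NRAS and 327, 286 and 301 with both. The empty libraries were the lowest, without overlap with any other group, the libraries with both lay above those with NRAS, and the SETBP1 group spanned both of these, with replicate 3 the highest of all. Cd68 rose with SETBP1 (log2 0.71, SE 0.18, adjusted p 0.0196) and with both against empty (log2 0.79, SE 0.18, adjusted p 0.00263), but not with NRAS (log2 0.35, SE 0.18, adjusted p 0.153). The SETBP1 change was log2 0.40 (adjusted p 0.00778) without SETBP1 replicate 3, and without empty replicate 1 or 3 it did not pass (0.079 and 0.0902). Cd68 was also higher with both than with SETBP1 when that library was left out (log2 0.40, adjusted p 0.00176), against log2 0.083, SE 0.17, adjusted p 0.734 with it.

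Mpeg1 fell with NRAS and did not pass with SETBP1. It had 59.1, 65.7 and 72.1 CPM in the empty replicates, 72.7, 60.2 and 60.7 with SETBP1, 33.7, 32.7 and 10.8 with NRAS and 39.2, 35.7 and 44.9 with both. Libraries with NRAS lay below all libraries without it, and NRAS replicate 3, with 85 counts, lay far below the others of its group, which had 255 and 242. Mpeg1 fell with NRAS (log2 -1.35, SE 0.28, adjusted p 0.00226); without NRAS replicate 3 the fall was log2 -0.98. Both against empty stayed just above the threshold (log2 -0.72, SE 0.27, adjusted p 0.0518) and passed without NRAS replicate 3 (log2 -0.72, adjusted p 0.000537) or SETBP1 replicate 3 (log2 -0.71, adjusted p 0.0106). It passed in 12 of 23 alternatives, among them DESeq2 (adjusted p 0.032), limma-voom (0.0386) and only the groups compared (4.92e-06), over a range from 4.92e-06 to 0.153. SETBP1 alone changed it by log2 -0.022, SE 0.27, adjusted p 0.965.

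Among the adhesion receptors, Adgre5 (CD97) gave the most even values within groups. It had 186, 169.9 and 169 CPM with empty vectors, 150.1, 124 and 143 with SETBP1, 64.1, 62.4 and 61.7 with NRAS and 69.8, 60.9 and 62.97 with both. Libraries with NRAS lay between 60.9 and 69.8 CPM and libraries without it between 124 and 186. Adgre5 fell with NRAS (log2 -1.48, SE 0.09, adjusted p 4.43e-08), and with SETBP1 by less (log2 -0.33, SE 0.087, adjusted p 0.0245), while both and NRAS were within each other's spread (log2 0.041, SE 0.091, adjusted p 0.955). The SETBP1 call ended without any 1 of the empty libraries or SETBP1 replicate 2 (adjusted p 0.0533 to 0.117). Of the tested ligands of CD97, Cd55 and Thy1 fell with NRAS and Itga5 and Itgb1 rose, where 32.5% of all genes passed. Cd55, the complement regulator that CD97 binds, went from 40.1 ± 2.51 CPM to 19.7 ± 4.49 with NRAS and 7.30 ± 1.46 with both (log2 -1.43, SE 0.22, adjusted p 0.00399 for both against NRAS).

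Adgre1 (F4/80) had 101, 106 and 118 CPM in the empty replicates, 125, 113 and 196 with SETBP1, 55.2, 45.3 and 46.9 with NRAS and 92.6, 70.8 and 89.1 with both. The NRAS libraries were the lowest, the libraries with both came next without overlap, and those with empty vectors and SETBP1 overlapped at the top. Adgre1 fell with NRAS (log2 -1.14, SE 0.18, adjusted p 0.000308) and was higher with both than with NRAS (log2 0.77, SE 0.18, adjusted p 0.0465). With SETBP1 alone it did not pass (log2 0.42, SE 0.17, adjusted p 0.114), and without SETBP1 replicate 3, the highest library, the value was log2 0.14 (adjusted p 0.438). Without SETBP1 replicate 2 it passed (log2 0.58, adjusted p 0.043).

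Adgre4, a receptor of resident myeloid cells, was close to the limit of detection except with SETBP1. Its counts were 27, 8 and 12 in the empty replicates, 58, 80 and 85 with SETBP1, 6, 0 and 2 with NRAS and 4, 0 and 1 with both. All 3 SETBP1 libraries lay above every other library, and a count of 0 allows up to 3 counts. The fitted change with SETBP1 was log2 2.26, SE 0.51, adjusted p 0.0143, for a gene that entered the test only through its SETBP1 counts, and without SETBP1 replicate 3 the change was log2 2.18 (adjusted p 0.00399). It did not pass without empty replicate 2 or 3 (adjusted p 0.0522 and 0.0742). The difference between NRAS and empty (log2 -2.39, SE 0.75, adjusted p 0.0259) rested on few counts, could not be tested with only these 2 groups, and did not pass without empty replicate 1, NRAS replicate 2 or NRAS replicate 3 (adjusted p 0.0892 to 0.13). With both it was lower than with SETBP1 (log2 -5.26, SE 0.71, adjusted p 6.04e-05), a fitted size that depends on the 5 counts of the both libraries.

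Ly6c2 was the most abundant of the 10 genes and among the least changed. Its CPM was 3200, 3397 and 3152 in the empty replicates, 3305, 3374 and 3921 with SETBP1, 2869, 3043 and 2683 with NRAS and 2186, 1998 and 2409 with both. The libraries with both were the lowest, the NRAS libraries came next, and the empty and SETBP1 libraries overlapped at the top. Ly6c2 was lower with both than with NRAS (log2 -0.38, SE 0.088, adjusted p 0.0411), than with empty (log2 -0.56, SE 0.088, adjusted p 0.000169) and than with SETBP1 (log2 -0.69, SE 0.088, adjusted p 3.71e-05). With NRAS alone the change was log2 -0.18, SE 0.087, adjusted p 0.13, and it passed in 5 of 23 alternatives. These were library size scaling (log2 -0.27, adjusted p 0.0097), upper quartile scaling (log2 -0.24, adjusted p 0.0401) and only the groups compared (log2 -0.19, adjusted p 0.0139). The others were sample quality weights (log2 -0.16, adjusted p 0.0145) and leaving out SETBP1 replicate 3 (log2 -0.18, adjusted p 0.0289). Of the relatives of Ly6c2, Ly6i rose with SETBP1 (log2 2.39, SE 0.28, adjusted p 0.000709) and fell with NRAS (log2 -1.49, SE 0.32, adjusted p 0.00292). All 4 Ly6 relatives tested fell with NRAS, 2 of them without empty replicate 2 or NRAS replicate 3, and 2 rose with SETBP1, 1 without empty replicate 1. Among all genes 32.5% passed with NRAS and 14.9% with SETBP1.

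F13a1 fell with NRAS and fell further with both. It had 798, 743 and 714 CPM with empty vectors, 536, 586 and 795 with SETBP1, 205, 199.8 and 181 with NRAS and 118, 151 and 104 with both. Libraries with NRAS lay at 205 CPM or lower and libraries without it at 536 or higher, and within the former the both libraries were below the NRAS libraries without overlap. The change was log2 -1.95, SE 0.15, adjusted p 4.44e-07 with NRAS, and log2 -0.65, SE 0.15, adjusted p 0.0397 with both against NRAS. With SETBP1 alone it was log2 -0.23, SE 0.14, adjusted p 0.263; SETBP1 replicate 3 at 795 CPM lay inside the empty range and the other SETBP1 libraries below it. Of 8 tested coagulation partners, 4 fell with NRAS, Thbd (log2 -1.36, SE 0.34, adjusted p 0.00667), F5, F7 and F10. In that comparison 32.5% of all genes passed.

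Ms4a6c had 93.4, 122 and 89.2 CPM in the empty replicates, 119, 151 and 165 with SETBP1, 46.8, 51.8 and 35.5 with NRAS and 47.8, 43.8 and 54.8 with both. The NRAS and both libraries overlapped well below all others, and SETBP1 replicate 1 lay under empty replicate 2. Ms4a6c fell with NRAS (log2 -1.18, SE 0.17, adjusted p 0.000105), and both differed from NRAS by log2 0.13, SE 0.17, adjusted p 0.907. The rise with SETBP1 (log2 0.51, SE 0.16, adjusted p 0.0457) ended without any library except empty replicate 2, SETBP1 replicate 1 or NRAS replicate 3 (adjusted p 0.052 to 0.172). Of 8 tested MS4A relatives, 6 fell with NRAS, where 32.5% of all genes passed, and the other 2 did not pass. With SETBP1 4 rose, among them Ms4a7 (log2 1.55, SE 0.31, adjusted p 0.00784), Ms4a6d (log2 0.99, SE 0.19, adjusted p 0.00628) and Ms4a6b (log2 0.80, SE 0.22, adjusted p 0.0276), and 2 fell, Ms4a2 and Ms4a3, which belong to mast cells or basophils and to granulocyte-monocyte progenitors. The 6 calls with SETBP1, where 14.9% of all genes passed, dropped to 3 without empty replicate 1 or 3.

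Genes of the monocyte and macrophage states around these markers were counted from lists. Of 21 tested macrophage genes, 12 rose and 1 fell with SETBP1 (median log2 0.90), 4 rose and 9 fell with NRAS, and 5 rose and 1 fell with both against NRAS. Of all genes, 14.9%, 32.5% and 1.91% passed in these comparisons. The complement genes C1qa, C1qb and C1qc rose with SETBP1, fell with NRAS and rose with both against NRAS: C1qa had 34.3 ± 3.43 CPM with empty vectors, 115 ± 41.4 with SETBP1, 15.9 ± 6.21 with NRAS and 39.99 ± 9.70 with both. Hmox1, the haem-degrading enzyme, rose with NRAS (log2 2.40, SE 0.21, adjusted p 1.45e-06), as Cd14 did. It was also among the 12 genes that rose with SETBP1, from 121 ± 22.3 to 345 ± 130 CPM. The summed CPM of the list was 2441 to 2903 with empty vectors, 3905, 3851 and 7145 in SETBP1 replicates 1 to 3, 2754 to 3421 with NRAS and 4423 to 4774 with both, and Timd4 was at 0 throughout. When SETBP1 replicate 3 was left out, the same 12 genes rose with SETBP1, 6 rose and 12 fell with NRAS, and 12 rose with both against NRAS. That fit called 1705, 5224 and 836 of all 11112 genes in these comparisons. The 13 calls with SETBP1 dropped to 7 and 6 without empty replicates 1 and 3, and the 13 with NRAS to 8 without empty replicate 1 or NRAS replicate 3. The 6 calls with both against NRAS dropped to 2 without empty replicate 1, empty replicate 3 or both replicate 3, to 1 without NRAS replicate 2, and to 0 without NRAS replicate 3, both replicate 1 or both replicate 2.

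Of 10 tested genes of classical monocytes, 7 fell and 3 rose with NRAS (median log2 -1.51), 4 rose and 4 fell with SETBP1, and 2 rose and 2 fell with both against NRAS. These comparisons called 32.5%, 14.9% and 1.91% of all genes. Ccr2, the chemokine receptor by which these cells leave the marrow, was higher with both than with NRAS (log2 0.53, SE 0.092, adjusted p 0.00852), as was Ccl9. The 2 that were lower were Chil3 and Cd177, and 11 of 15 tested neutrophil genes fell in this comparison too. Chil3 went from 1815 ± 69.6 CPM with NRAS to 1034 ± 68.1 with both, and Cd177 from 71.2 ± 7.82 to 24.2 ± 1.38. Vcan, a proteoglycan, fell with SETBP1 (log2 -1.66, SE 0.29, adjusted p 0.00451) and NRAS (log2 -2.27, SE 0.30, adjusted p 7.38e-05). Of 11 tested genes of nonclassical monocytes, 2 rose and 4 fell with NRAS and 2 rose and 2 fell with SETBP1. Beside these stand the same 32.5% and 14.9% of all genes. Cd36, a lipid scavenger receptor that macrophages carry too, rose in all 3 comparisons, from 10.3 ± 4.66 CPM with empty vectors to 29.2 ± 11 with SETBP1, 70.8 ± 11 with NRAS and 158 ± 2.11 with both. The 8 classical calls with SETBP1 dropped to 5 without empty replicate 1 or 3, and the 4 nonclassical ones to 2 without any 1 empty library. With both against NRAS the 4 classical calls dropped to 2 without NRAS replicate 2 and became 9 without SETBP1 replicate 3.

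Neutrophil genes moved with the groups as well, and their part in the changes of the 10 genes was not tested. Of 15 tested, 9 fell with SETBP1, 10 fell and 2 rose with NRAS, and 11 fell with both against NRAS. The 3 comparisons called 14.9%, 32.5% and 1.91% of all genes. The neutrophil list's summed CPM was 34820 to 38910 with empty vectors, 22590 to 26310 with SETBP1, 15140 to 18260 with NRAS and 7762 to 7881 with both. Mpo (15350 ± 795 CPM) and Elane (6436 ± 531) made up most of the sum with empty vectors, so it does not follow every gene of the list. Both encode primary granule proteins of myeloid progenitors, so the sum does not stand for neutrophils alone. The 2 genes that rose with NRAS were Mmp9 (74.3 ± 7.98 to 145 ± 23.5 CPM) and Cxcr2 (19.8 ± 3.97 to 41.8 ± 7.14). Of 10 tested mast cell and basophil genes, 6 fell with SETBP1, 9 with NRAS and 3 with both against NRAS; their summed CPM was 3215 to 3287, 1738 to 2482, 759 to 1269 and 422 to 609.5 in the 4 groups. The 6 calls with SETBP1 dropped to 3 without empty replicate 1 or 3, and the 3 with both against NRAS became 6, 8 and 5 without SETBP1 replicate 1, SETBP1 replicate 3 and NRAS replicate 1. Since each library is a mixture, fewer cells of a type and less RNA per cell cannot be told apart.

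**Figure D4:**
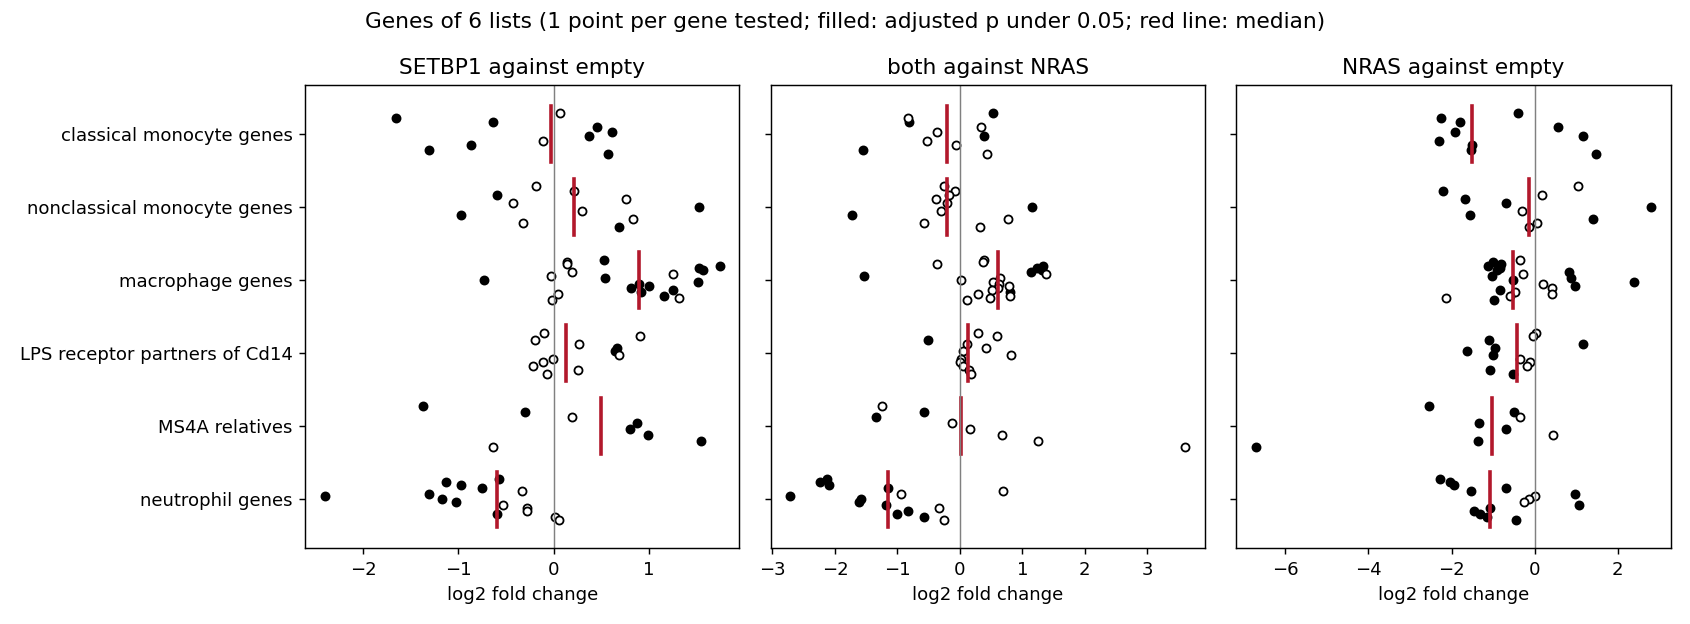
Log2 fold change of each tested gene of 6 lists in 3 comparisons, filled where the adjusted p was under 0.05, with the list's median in red. The macrophage list's median is 0.90 for SETBP1 against empty and 0.61 for both against NRAS, while the neutrophil list's medians are -0.59 and -1.14.

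Among 12 transcription factors of the monocyte lineage, 5 rose and 1 fell with SETBP1, and 2 rose and 4 fell with NRAS. Over all genes 14.9% and 32.5% passed. Spi1, which encodes PU.1, had 448 ± 18, 459.6 ± 70.5, 398 ± 22.3 and 373 ± 6.86 CPM in the empty, SETBP1, NRAS and both groups. Irf8, needed for monocyte formation, rose with SETBP1 (log2 0.81, SE 0.15, adjusted p 0.00628), and the others that rose were Cebpb, Egr1, Jun and Fos. With SETBP1 alone Egr1 went from 10.2 ± 3.2 to 22.4 ± 8.63 CPM and Jun from 29.4 ± 3.17 to 47.5 ± 6.02. Egr1 (log2 3.94, SE 0.26, adjusted p 7.89e-08) and Jun (log2 1.68, SE 0.12, adjusted p 1.64e-07), both induced by MAPK signalling, rose with NRAS, as Cd14 did, and Klf4, a factor of classical monocytes, fell (log2 -2.27, SE 0.35, adjusted p 0.000226). Fits without SETBP1 replicate 3 gave 5 factors higher and 5 lower with NRAS, among the latter Spi1.

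The genes most like each marker over the 12 libraries were found by the root mean square difference (RMS) of log2 CPM, each gene centred on its mean, among 9064 other genes with a mean count of at least 50. Gpnmb was closest to C1qc (RMS 0.24) and C1qb (0.24), of which C1qc had 91.7 ± 10.9 CPM with empty vectors, 272 ± 137 with SETBP1, 48.8 ± 17.1 with NRAS and 121.7 ± 14 with both. Cd14 was closest to Rhoc (0.32) and Metrnl (0.35), Adgre5 to Arl11 (0.089) and Tifab (0.14), Adgre1 to Tlr1 (0.21) and Aph1c (0.24), and F13a1 to Gpr160 (0.20) and Per3 (0.21). Cd68 was closest to Timm10 (0.11) and Bcl2a1b (0.12), Ly6c2 to Mpc1 (0.075) and Pcgf5 (0.094), and Ms4a6c to Dcxr (0.17) and Marcks (0.18). Mpeg1 was closest to Psap (0.18), the precursor of the lysosomal saposins, and then to Lmo4 (0.36). Psap shared the low value of NRAS replicate 3, with 921 CPM there against 2329 and 2553 in the other NRAS libraries. Among the markers themselves, the closest pairs were Adgre5 with Ms4a6c (0.38) and Adgre1 with Ms4a6c (0.39), and the farthest was Cd14 with F13a1 (2.52). The libraries share the group differences of many genes, so a small distance is a description of these 12 libraries.

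**Figure D5:**
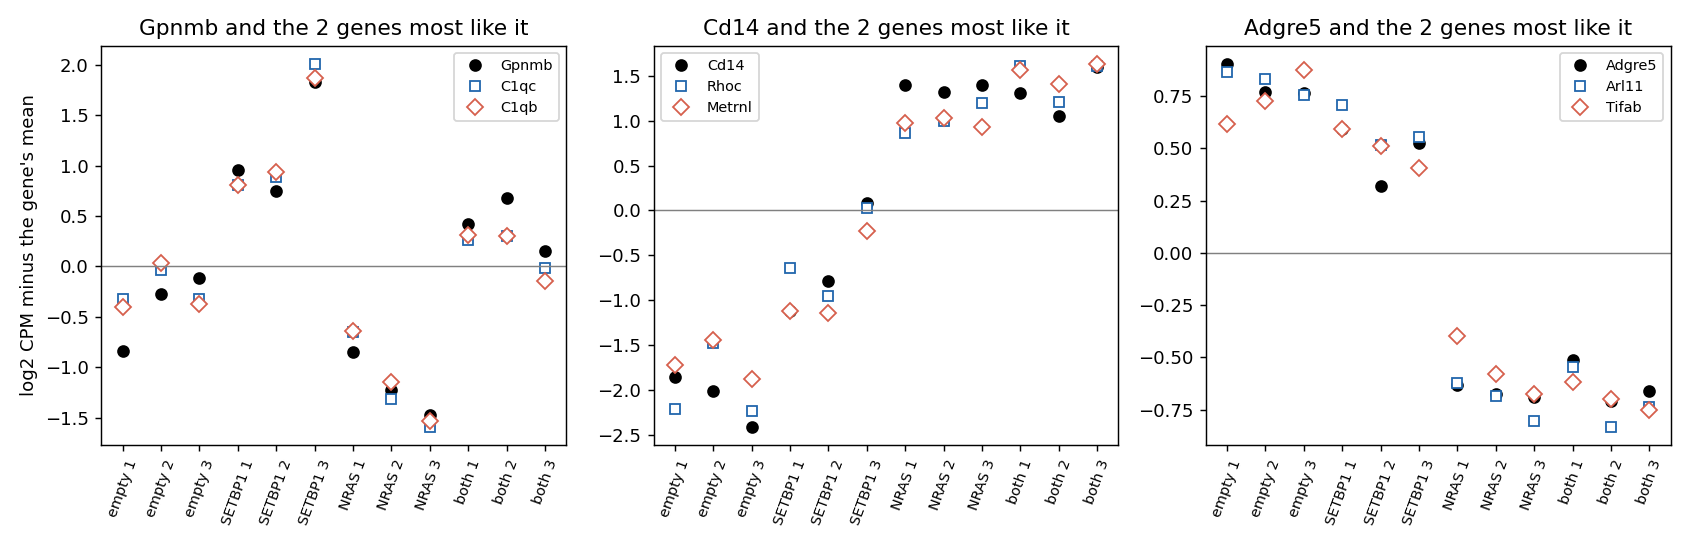
Log2 CPM minus the gene's mean in each of the 12 libraries for Gpnmb, Cd14 and Adgre5 (black) and for the 2 genes closest to each. Gpnmb, C1qc and C1qb share the high value of SETBP1 replicate 3 and are lowest with NRAS.

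Promoters of 4 genes are shown. F13a1 and Ly6c2 are the genes that were lower with both than with NRAS, and Gpnmb and Cd68 are the lysosomal genes that rose with SETBP1. The pairs were chosen after their values were seen, and their patterns over the 12 libraries were not close (RMS 0.89 and 0.76). Each sequence is the 150 bases upstream of the RefSeq start on GRCm38.p6, 5′ to 3′ on the gene's strand, from a table that holds an entry for 7 of the 10 genes. Capitals mark matches, on either strand, to the core motifs of PU.1 (GAGGAA), AP-1 (TGANTCA), C/EBP (TTGCNNAA), interferon regulatory factors (GAANNGAA) and the MITF and TFE family (CATGTG and CACGTG). No exon of another gene overlaps these stretches.
F13a1 (chr13:37050245-37050394, minus strand): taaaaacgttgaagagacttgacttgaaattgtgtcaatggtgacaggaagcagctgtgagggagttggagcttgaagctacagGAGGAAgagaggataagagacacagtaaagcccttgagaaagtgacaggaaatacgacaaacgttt
Ly6c2 (chr15:75112067-75112216, minus strand): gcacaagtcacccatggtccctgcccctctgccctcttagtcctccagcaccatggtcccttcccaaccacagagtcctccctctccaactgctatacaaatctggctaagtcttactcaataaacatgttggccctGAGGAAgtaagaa
Cd68 (chr11:69666171-69666320, minus strand): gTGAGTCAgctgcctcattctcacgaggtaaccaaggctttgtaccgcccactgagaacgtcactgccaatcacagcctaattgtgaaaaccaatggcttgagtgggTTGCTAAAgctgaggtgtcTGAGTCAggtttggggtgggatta
Gpnmb (chr6:49036368-49036517, plus strand): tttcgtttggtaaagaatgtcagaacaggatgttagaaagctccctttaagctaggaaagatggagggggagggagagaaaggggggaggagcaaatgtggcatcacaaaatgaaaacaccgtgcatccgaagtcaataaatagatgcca
F13a1 and Ly6c2 each held 1 match to the PU.1 core, 66 and 13 bases upstream of the start, and 14.4% of 27025 mouse promoters of the same length held one. Cd68 held 2 AP-1 matches, 149 and 24 bases upstream, where 4.27% of promoters held at least 1, and 1 C/EBP match, where 5.48% did. Gpnmb, Ms4a6c and Mpeg1 held no match to any of the motifs, and Adgre4 held 1 to C/EBP and 1 to interferon regulatory factors (10.3% of promoters). The 2 MITF and TFE motifs occurred in 7.06% and 4.3% of promoters and in none of the 7. A match is a description of the letters and says nothing of binding.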

How the data were processed

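RNA of 12 libraries, 3 per group, was measured as read counts. The values are the authors' deposited counts, whole numbers with no scaling, in 1 table. STAR, DESeq2 and the mm10 build are named, with no role, per the submitters' processing notes; the counter, its annotation, its strand setting and the filter of the table are not given in the sources used here, and 5080 of 19910 genes had no count in any library. Samples were grouped by the transduction given in the labels. In R 4.3.3, edgeR 4.0.16 kept genes with filterByExpr (minimum count 10, total 15), which left 10993 genes with 99.93% of counts, scaled libraries by TMM, fitted 4 group means to all 12 libraries and tested 6 pairwise comparisons and the interaction with the quasi-likelihood F test, two-sided, with Benjamini-Hochberg adjustment over all genes tested and a threshold of 0.05. Normalised CPM use the TMM factors, log2 CPM a prior count of 2. The 10 genes, the gene lists and the rule for named genes were chosen with earlier results of these data known, so their counts are descriptions. All 10 genes are named in every comparison. Genes named from a list are the 3 with the largest changes among those past the threshold whose mean count reached 50 in at least 1 group, joined by the 2 closest genes of each marker. Tlr4, Mitf and Spi1, and genes listed by name with no values, were chosen after their values were seen. Depth of 7085894 to 8864919 counts limits Adgre4 and Setbp1. DESeq2 1.42.0, limma-voom (limma 3.58.1), other scalings and filters, a replicate block, a robust fit, a stricter threshold, only the groups compared and each library left out were tried; sample quality weights, and the settings applied to the lists, were added after the data were seen. The steps were tested on simulated data. Biopython 1.88 aligned coding sequences.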

Additional observations from a re-analysis of the deposited data

How the results depend on the processing

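Of 1590 recomputed log2 fold changes of the 10 genes, 1466 kept their side of the threshold, 71 lost the call and 53 gained one. No called value reversed, and 16 of the 1466 changed sign without a call in either fit. The number of the 10 genes past the threshold for SETBP1 against empty was 2 at an adjusted p under 0.01 and 2 with only the groups compared, and ran from 2 to 6 over the 12 fits that each leave out 1 library, against 6 as reported. Over all genes, 379 of 10993 and 110 of 10688 passed in the first 2 settings. The left-out fits called 390 to 3191 of all genes, against 1633 of 10993 as reported. For both against NRAS, 4 of the 10 genes as reported, the number was 2 with limma-voom and 1 at an adjusted p under 0.01, and ran from 1 to 5 over the left-out libraries. Over all 10993 genes, 184 and 86 passed in the first 2 settings, against 210 as reported. The left-out fits called 93 to 836 of all genes. For the interaction, 0 of the 10 genes as reported, the number was 2 with DESeq2, 1 with no low-count filter, 4 with sample quality weights (2 higher, 2 lower), and 0 to 2 over the left-out libraries. Over all genes the interaction passed for 93 of 10993 with DESeq2, 14 of 14830 with no low-count filter and 351 of 10993 with sample quality weights. It passed for 1 to 110 genes over the left-out libraries. The other 4 comparisons stayed within 1.5 times of their reported counts of 8, 8, 8 and 9 in every setting tried, with 6 to 10, 6 to 10, 7 to 10 and 8 to 10 over the left-out libraries. In the same order, those fits called 2681 to 5224, 3658 to 5969, 3681 to 5166 and 3286 to 5116 of all genes. Same-numbered libraries of different groups did not deviate together (correlations from -0.13 to 0.12 over 18 pairs, 1 of them over 0.1). These values show no pairing by number but cannot exclude a shared origin, which the labels do not give. With the replicate number as a block, 2 of the 10 genes passed for both against NRAS, Adgre1 and Gpnmb, where 164 of all 10993 genes did. With DESeq2, limma-voom or the replicate block, Gpnmb did not pass for NRAS against empty (adjusted p 0.0548, 0.0563 and 0.0641). Why these values differ was not tested. Scaling by library size moved the median change over all genes tested for both against empty from -0.009 to -0.132, and no called direction of the 10 genes turned under any scaling. The depth limits Adgre4, with 0 to 6 counts in the libraries with NRAS.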

Other observations

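Of 9 tested dendritic cell genes, 4 rose with SETBP1 (H2-Aa, H2-Ab1, Cd74 and Bst2) with and without SETBP1 replicate 3. With all 12 libraries 14.9% of all genes passed. H2-Ab1, a chain of MHC class II, rose with SETBP1 (log2 1.07, SE 0.17, adjusted p 0.00279) and fell with NRAS (log2 -0.89, SE 0.18, adjusted p 0.00147). Itgax, the integrin CD11c, rose with NRAS (log2 2.69, SE 0.37, adjusted p 9.94e-05), as Cd14 did. The platelet chemokines Pf4 (log2 1.51, SE 0.32, adjusted p 0.0105) and Ppbp (log2 1.11, SE 0.28, adjusted p 0.022) rose with SETBP1. Of 6 tested relatives of the Adgre genes, 1 rose with SETBP1, Adgrl4, and 2 fell, Adgrg1 and Adgrg3. Adgrl4, known from endothelium and described here after its values were seen, rose with SETBP1 (log2 1.13, SE 0.22, adjusted p 0.0076) and with both against NRAS (log2 1.57, SE 0.24, adjusted p 0.00355) and fell with NRAS (log2 -0.85, SE 0.24, adjusted p 0.0149).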
